A study of Mus musculus with 15 samples.

Results

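Large intestine RNA was compared between mice given a high oral dose of cymopol and mice given a low oral dose. Cymopol is a prenylated bromohydroquinone of the green alga Cymopolia barbata. The high dose group held 3 libraries (replicates 11, 12 and 14; 1.4 mmol/kg) and the low dose group held 3 (replicates 33, 34 and 35; 0.3 mmol/kg), so the comparison uses 6 of the series' 15 libraries. All mice were male C57Bl/6 aged 4 weeks, with no transgene or deletion named, and they received 3 daily gavages 24 h apart in Chremophor EL holding 10% DMSO. Tissue was taken 12 h after the last gavage. The other 9 libraries are 3 controls and 3 each at a high and a low dose of a nonpolar algal extract (1.0 and 0.3 g/kg). The labels do not say that the libraries of a group came from separate mice, so the p-values below measure the spread between these samples, which may be technical.

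Values are FPKM, a count of sequenced fragments divided by the gene's length and by the library's depth, so that levels can be compared between genes of different length. Each deposited table lists part of the genes under Ensembl identifiers and the rest as loci assembled in that library alone. Genes were included when an Ensembl row stood in all 6 tables and 3 or more of these gave an FPKM of 1 or higher. Of 36679 identifiers with a row in any of the 6 tables, 28308 had a row in all 6 and 1012 met the FPKM limit. These genes have few exons (median 3, with 22.7% of genes having a single exon). A wider table was therefore made, after the data had been seen, by giving assembled loci to genes they overlapped. It holds 8910 genes (median 10 exons, 3.5% with a single exon) and is named wherever it is used. Loci were given only to genes without an Ensembl row in that library. A gene with a row kept its listed value, a listed 0 included, even where an assembled locus covered it. A gene could thus hold a locus value in some libraries and a listed 0 in others. Assembled loci numbered 21217, 22691 and 19874 in the high dose libraries and 11068, 12961 and 16138 in the low dose libraries. Per-library values are given in the order of replicates 11, 12 and 14 for the high dose and 33, 34 and 35 for the low dose.

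As background, hydroquinones can be oxidised to quinones, which react with cysteine thiols. KEAP1 holds the transcription factor NRF2 for degradation, and modification of KEAP1 cysteines releases NRF2 to switch on genes for glutathione synthesis, quinone reduction, conjugation and iron storage. Within the large intestine, the lining is the layer that faces ingested material. It is made of absorptive colonocytes, mucus-secreting goblet cells and hormone-secreting enteroendocrine cells, renewed from stem cells at the crypt base.

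The libraries differed in depth along with the dose. Fragments assigned to genes, estimated from the width of each FPKM interval, came to 310133, 365699 and 317116 in the high dose libraries and to 38191, 66989 and 201656 in the low dose libraries. These are rough lower figures, since for some genes the interval is wider than counting alone would make it. Of the 1012 genes, 6.52%, 5.04% and 9.49% were listed at an FPKM of 0 in the high dose libraries, against 54.64%, 40.71% and 6.62% in the low dose libraries. Low dose replicates 33 and 34 thus stood apart from the other 4 libraries and are called the shallow libraries below. Replicate 35 lay among the high dose libraries in the percent listed at 0, but below all 3 of them in fragments. The 3 controls had 64113, 248223 and 30090 estimated fragments. In them 57.1%, 36.99% and 61.48% of the tested genes with a row were listed at 0, which limits the control values given below. Mean estimated fragments differed by 228704 (exact permutation test, two-sided p = 0.1, which is the smallest p that 3 against 3 can give), and the percent of genes listed at 0 differed by 27.0 percentage points (exact permutation p = 0.2). Across the 1012 genes, replicate 35 correlated with the high dose libraries at r = 0.754, 0.712 and 0.711 on the log2(FPKM + 1) scale, but with replicates 33 and 34 at 0.605 and 0.535. These correlations run across genes of libraries that share depth and base composition, and describe the libraries only. A listed 0 need not mean absence: mt-Co1, mt-Co2 and mt-Cytb, mitochondrial genes active in every cell, were listed at 0 in all 6 libraries. Of the zeros among the 1012 genes, 43.9%, 37.3% and 26.0% lay under an assembled locus in the high dose libraries. In the low dose libraries these shares were 14.3%, 16.5% and 26.9%. The cause of the zeros was not tested. A gene is therefore described below as listed at 0, not as absent.

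**Figure D1:**
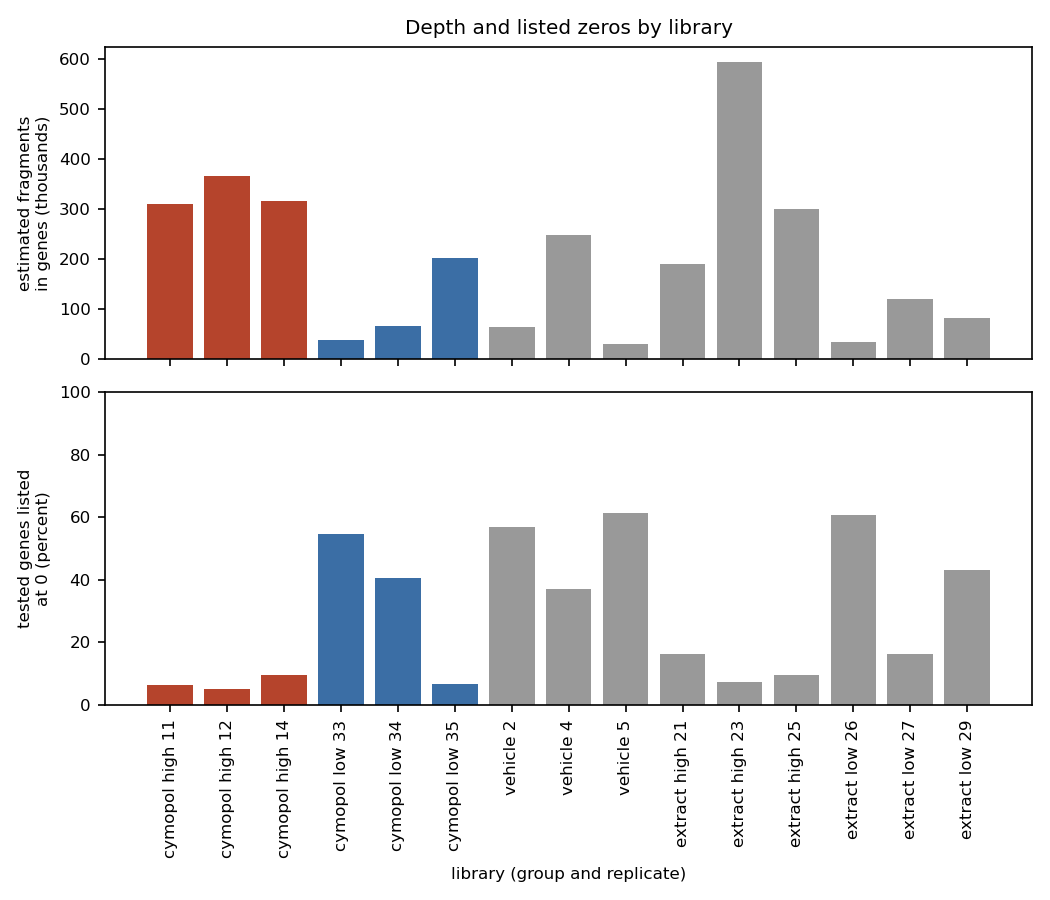
Estimated fragments in genes (upper panel, vertical axis in units of 1000) and the percent of the 1012 tested genes listed at an FPKM of 0 (lower panel), 1 bar per library, with cymopol high dose in red, cymopol low dose in blue and the other 9 libraries in grey. Low dose replicates 33 and 34 have 54.64% and 40.71% of genes listed at 0, while replicate 35 has 6.62%, within the range of the high dose libraries.

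No gene of the 1012 passed a Benjamini-Hochberg adjusted p of 0.05 between the doses (0.0% called, limma on log2(FPKM + 1)). At an unadjusted p under 0.05, 74 genes were higher at the high dose (7.31%) and 4 were lower (0.395%). The second tool, voom on the estimated fragments, called 0 genes higher and 2 lower, with 29 and 67 genes at an unadjusted p under 0.05. Its input is estimates, not counts. An FPKM of at least 1 stood beside an estimate under 0.5 fragments, in at least 1 library, for 66 of the 1012 genes. In the wider table this held for 2727 of 8910 genes, so voom calls are weak. All 3 high dose libraries lay above all 3 low dose libraries for 107 genes (10.6%) and below them for 12 (1.19%). Of the 107, the low dose libraries were all listed at 0 for 23 genes, 2 of 3 for 42, 1 of 3 for 31 and none for 11. A gene could meet the FPKM limit through a single dose group, as those 23 genes did through the high dose. The counts in this paragraph therefore follow in part from the filter.

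The lean towards the high dose ran through the whole table. The median difference of the 1012 genes was 0.64 on the log2 scale, and 77.0% of genes had a difference above 0. Replicate 33 lay below all 3 high dose libraries for 63.0% of genes and replicate 34 for 47.3%, but replicate 35 for 19.1%. Replicate 35 was above all 3 high dose libraries for 23.6%. Without replicates 33 and 34 the median was -0.18, and without replicate 33 alone it was 0.30. Quantile normalization, which gives each library the same spread of values, moved the median to -0.05 and the genes at an unadjusted p under 0.05 to 25 higher and 30 lower. The direction of single genes is best read relative to these medians. The part of depth in the result was not tested, and with both shallow libraries at the low dose the 2 cannot be told apart.

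**Figure D2:**
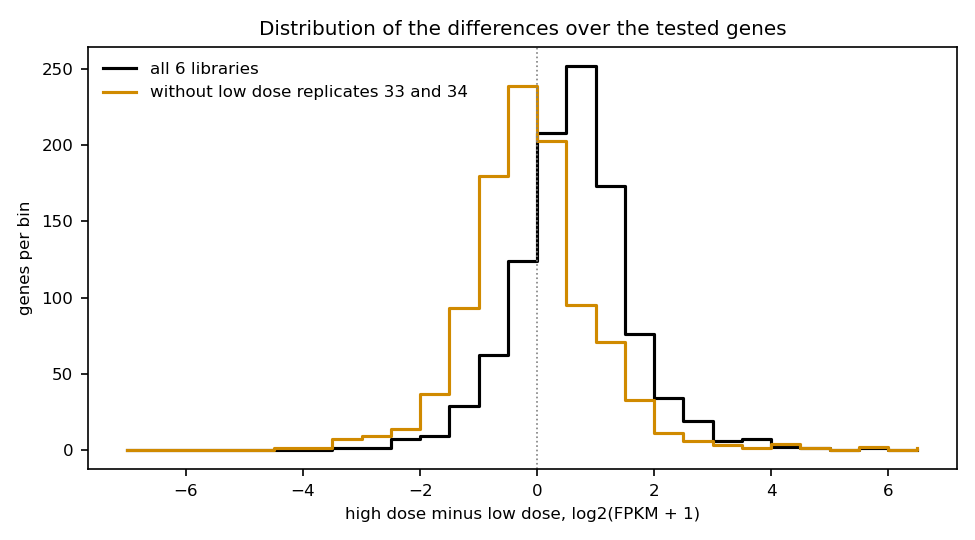
Number of genes (vertical axis) by high dose minus low dose difference in mean log2(FPKM + 1) (horizontal axis, bins of 0.5) for the 1012 tested genes, with all 6 libraries in black and without low dose replicates 33 and 34 in orange. The black line is centred above 0 (median 0.64) and the orange line just below it (median -0.18).

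Of the 8910 genes of the wider table, 1 was called (0.0112%), the small nucleolar RNA gene Snord8. The unadjusted counts leaned the same way, with 585 genes higher (6.57%) and 35 lower (0.393%). Groups did not overlap for 875 genes with the high dose above (9.82%) and for 89 with it below (0.999%). The median difference was 0.67 with all 6 libraries and -0.02 without replicates 33 and 34.

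Small nucleolar RNAs, which guide chemical changes of ribosomal and spliceosomal RNA, made up 45 of the 1012 genes. Their median difference was 1.51, and the groups did not overlap for 5 of them, all with the high dose above, a share near the 10.6% of all 1012 genes. Snord8 had the smallest p of all genes, so its sequence is shown. It is from GENCODE M21 (GRCm38), 5′ to 3′, with capitals marking the first TGATGA (C box, from base 7) and the last CTGA (D box, from base 102).
Snord8: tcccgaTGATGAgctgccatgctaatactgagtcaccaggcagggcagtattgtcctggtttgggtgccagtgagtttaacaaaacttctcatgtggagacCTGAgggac
Of 1507 snoRNA transcripts in that annotation, 24.0% hold TGATGA followed by CTGA on the strand of the gene. Snord8 (ENSMUSG00000093044) lies at chr14:52209785-52209894 on the minus strand in an intron of Chd8.

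Snord8 had 123, 113 and 15.7 FPKM in the high dose libraries and was listed at 0 in all 3 low dose libraries and all 3 controls. Those values rest on about 7, 7 and 1 estimated fragments. Snord8 met the FPKM limit through the high dose alone. Its adjusted p was 0.0964 among the 1012 genes and 0.0133 in the wider table. It was called there under 6 of the 16 alternatives that test it, and no longer with high dose replicate 11 or 12 or low dose replicate 35 left out, or without both shallow libraries. Chd8, its host gene, had 5.38, 12.1 and 11.6 FPKM at the high dose and 5.28, 4.98 and 5.38 at the low dose in the wider table. The groups of Snord8 were apart by a listed 0, while for Chd8 the nearest low dose library lay just under the lowest high dose library.

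The 10 protein-coding genes with the smallest p towards the high dose did not pass the threshold, and the groups did not overlap for any of them. Choice by smallest p favours genes low in every low dose library, replicate 35 included, so such values are no separate support. Ran, the GTPase that drives nuclear import and export, had 58.3, 26.9 and 64.2 FPKM at the high dose and 0, 2.14 and 0.988 at the low dose. Its difference was 4.69 ± 0.99 (SE, log2 scale, limma adjusted p = 0.214). Replicate 35, with the most fragments of the low dose libraries, was low for Ran too. Without replicates 33 and 34, which leaves 1 low dose library whose spread is taken from the high dose, the difference was 4.58 (adjusted p = 0.672). Among the controls Ran had a row in 2 libraries, at 3.34 and 82.3 FPKM. Ran has near-identical copies elsewhere in the genome, among which reads can be split.

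Ndufa4, a mitochondrial respiratory chain protein, had 4.79, 6.20 and 3.82 FPKM against 0 in each low dose library. Cebpd, a transcription factor of acute phase responses, had 5.45, 18.1 and 2.48 FPKM against 0, 0 and 0. Sdf2l1, a chaperone cofactor of the endoplasmic reticulum (ER), had 5.15, 8.13 and 9.87 FPKM against 0, 0 and 0.693. In all 3 the deep replicate 35 was listed at or near 0 with the shallow ones, which choice by smallest p favours. Over all 1012 genes it lay below all 3 high dose libraries for 19.1%. Sertad1, a cofactor of cell cycle transcription, had 8.76, 3.56 and 8.99 FPKM against 0, 0 and 0.535. Eef1e1, a factor of the aminoacyl-tRNA synthetase complex, had 2.80, 2.43 and 1.80 FPKM, Sf3b4, a splicing factor, 2.90, 1.85 and 5.42, and Nxt1, an RNA export factor, 1.63, 2.35 and 2.08, each against 0 in all 3 low dose libraries. The remaining 2 are the histone genes Hist1h2ac and Hist1h2bl. Adjusted p was 0.291 for all 9 genes after Ran. Those listed at 0 in all 3 low dose libraries met the FPKM limit through the high dose alone. Of these 10 genes, 9 were listed at 0 in at least 1 control and 4 (Ndufa4, Sdf2l1, Cebpd and Nxt1) in all 3, so a listed zero was common outside the low dose as well.

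Fewer genes stood on the side of the low dose, and their p-values were larger. Muc2, the gel-forming mucin of goblet cells and by far the most abundant of the 10 protein-coding genes with the smallest p in this direction, had 708, 661 and 321 FPKM at the high dose and 500, 2146 and 1593 at the low dose. The groups overlapped through replicate 33, and the difference was -1.17 ± 0.83 (SE, limma adjusted p = 0.769). The controls had 194, 536 and 838 FPKM, so the 2 higher low dose libraries lay above every control.

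Tmem204, an adherens junction protein of endothelium, had 0.909, 0 and 1.13 FPKM against 2.88, 11.3 and 1.69 (difference -1.66 ± 0.86, adjusted p = 0.735). Mob3a, a MOB family kinase activator, had 0.843, 1.21 and 0.856 FPKM against 1.87, 6.24 and 2.60. For both of these genes the low dose libraries all lay above the high dose libraries. The remaining 7 were Tmem101, Ccpg1os, Fam122a, Serpina3n, S1pr3, Cdr1 and Cd248, and their groups overlapped, with adjusted p of 0.769. Cd248, a marker of pericytes and fibroblasts, had 2.05, 4.45 and 0 FPKM against 8.39, 4.90 and 3.04, and S1pr3, a sphingosine phosphate receptor, had 1.02, 1.75 and 0 against 5.33, 2.09 and 1.47. Cdr1 had 1.18, 1.49 and 0.869 FPKM against 15.8, 2.88 and 1.16. A circular RNA is made from the opposite strand of Cdr1, and since the counting is not stated to use strand, reads of the 2 cannot be told apart. Without replicates 33 and 34 the Cdr1 difference was 0.00.

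**Figure D3:**
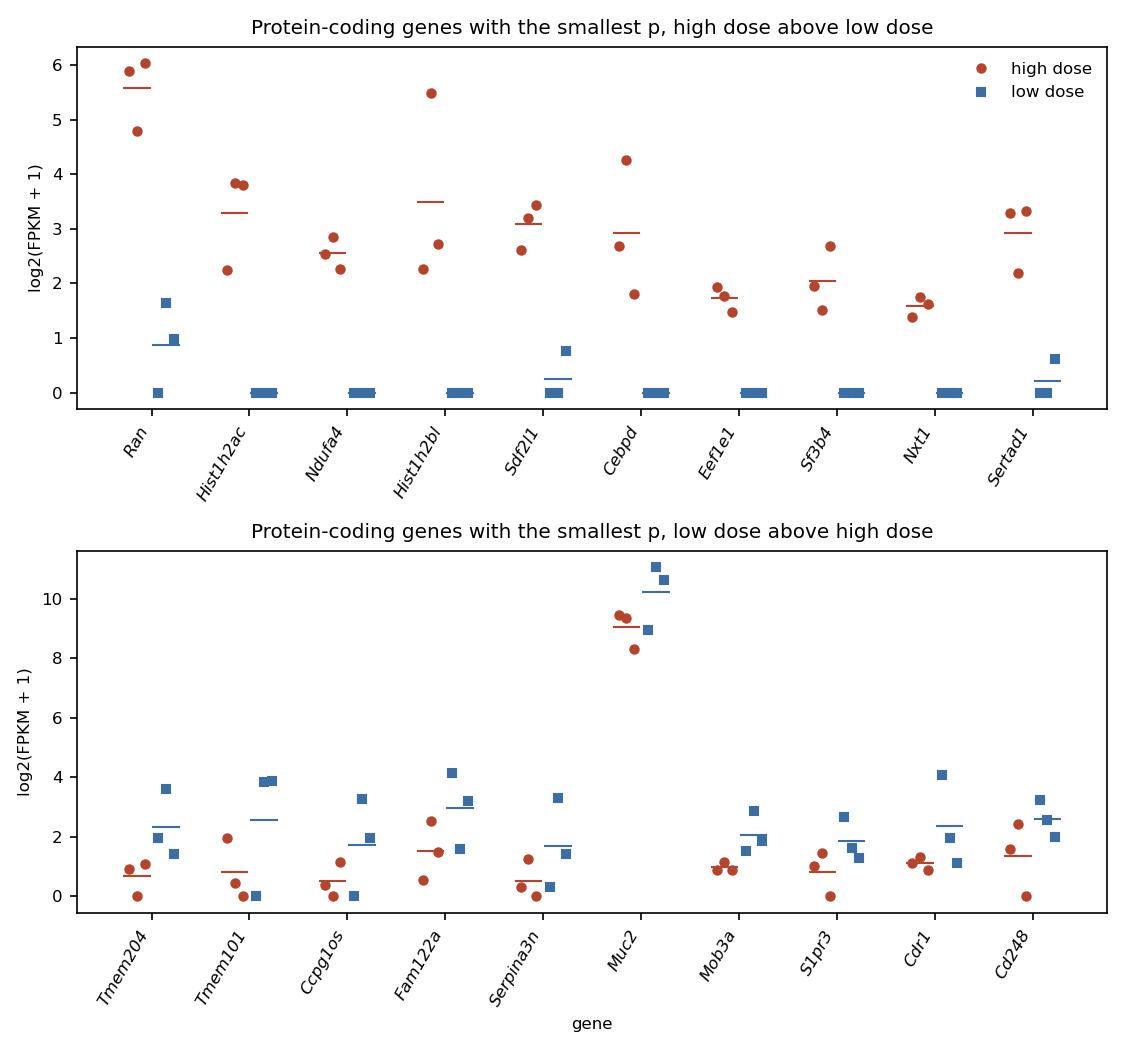
Level per library on the log2(FPKM + 1) scale (vertical axis) for the 10 protein-coding genes with the smallest p in each direction, with high dose libraries as red circles, low dose libraries as blue squares and group means as lines. In the upper panel the low dose libraries sit at or near 0 for every gene, and in the lower panel most groups overlap.

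The 4 genes towards the low dose at an unadjusted p under 0.05 were not protein-coding. Gm15566 and Gm8365 are processed pseudogenes, whose reads can come from their parent genes, Gm17491 is an intronic transcript and Gm17244 an unverified transcript. Gm15566 was listed at 0 in all 3 high dose libraries and had 2.03, 5.94 and 4.18 FPKM at the low dose, and Gm17491 was likewise at 0 against 2.20, 18.2 and 2.84. Both had an adjusted p of 0.291 and both were called by voom on the estimated fragments and by the fit that included all 15 libraries. Gm8365 had 2.13, 4.66 and 0.589 FPKM against 6.76, 23.7 and 17.7. The groups did not overlap for any of the 4. Gm15566 and Gm17491 met the FPKM limit through the low dose alone.

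Restricting the test to the 274 genes above 0 in all 6 libraries left 6 genes higher and 2 lower at an unadjusted p under 0.05, none called. The median difference there was 0.26. Slc39a1, a zinc importer, had 9.15, 10.9 and 9.25 FPKM against 0.527, 0.531 and 6.30, and its groups did not overlap. Pglyrp1, a bactericidal peptidoglycan recognition protein, had 8.15, 42.5 and 28.7 FPKM against 2.62, 6.70 and 8.42. Gsto1, an omega class glutathione transferase, had 35.8, 76.9 and 51.3 FPKM against 0.817, 23.4 and 57.9. Replicate 35 lay above 2 of 3 high dose libraries for Gsto1, just above the lowest of them for Pglyrp1 and below all of them for Slc39a1.

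Because cymopol is a hydroquinone, NRF2 targets were examined as a list of 47 genes, of which 6 were among the 1012 genes and 39 in the wider table. None passed the test (smallest limma adjusted p = 0.612 in the wider table), 2 of 39 were higher at an unadjusted p under 0.05 (6.57% of all genes were) and none lower. Their median difference was 0.91 against 0.67 for all genes, and 36 of 39 were above 0 (92.3%, against 78.6% of all genes). Without replicates 33 and 34 their median was -0.08 and 17 of 39 were above 0. Replicate 35 was at or above the median of the high dose libraries for 25 of the 39 genes, replicate 34 for 9 and replicate 33 for 0. The values that follow are from the wider table.

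The marker most used for NRF2 activity, Nqo1, a quinone reductase, had 5.15, 5.31 and 4.19 FPKM at the high dose and 0, 0 and 6.64 at the low dose. Low dose replicate 35 was the highest of the 6, and the controls had 0.167, 0 and 0. The difference was 1.57 ± 1.03 (SE, adjusted p = 0.746), and -0.38 without replicates 33 and 34. Hmox1, heme oxygenase, had 4.38, 1.88 and 1.02 FPKM against 0, 0 and 4.79, with replicate 35 again the highest of the 6 and with all 3 controls listed at 0. Neither gene separated the doses. With many genes listed at 0 in every control, the control values give no firm baseline.

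Glutathione synthesis starts with glutamate cysteine ligase, whose catalytic subunit is Gclc and whose modifier subunit is Gclm. Gclc had 22.2, 3.02 and 19.7 FPKM against 0.207, 10.2 and 20.5 (difference 0.91 ± 1.10, adjusted p = 0.836). Gclm had 12.1, 11.9 and 32.0 FPKM against 1.73, 0 and 22.2 (2.15 ± 1.09, adjusted p = 0.723). In both the deep replicate 35 was inside the high dose range. Slc7a11, the cystine importer that supplies the pathway, was below the FPKM limit, with 0.366, 0.141 and 0 FPKM against 0 in each low dose library. Of the thioredoxin arm, Txnrd1, thioredoxin reductase, had 20.1, 20.3 and 43.7 FPKM against 0.237, 12.3 and 72.8, and Srxn1, sulfiredoxin, had 9.75, 5.12 and 38.6 against 0, 5.73 and 12.8. Txn1, thioredoxin, had 32.0, 117 and 52.2 FPKM against 11.4, 39.6 and 32.4. The groups overlapped for all 3.

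Gpx2, the glutathione peroxidase of gut epithelium, was the NRF2 target with the smallest p. It had 14.3, 25.9 and 11.3 FPKM at the high dose and 0, 1.31 and 6.78 at the low dose (2.71 ± 1.05, unadjusted p = 0.0139 and limma adjusted p = 0.612), with 0.447, 0 and 0 in the controls. Gsta1, an alpha class glutathione transferase, had 4.55, 1.61 and 1.79 FPKM against 0, 0 and 0.707 (adjusted p = 0.670). Tkt, transketolase of the pentose phosphate pathway, had 30.2, 32.0 and 35.9 FPKM against 11.0, 8.74 and 20.6. These 3 were the list's members whose groups did not overlap, and the high dose lay above in each, a smaller share than the 9.82% of all genes. Gsta1 belongs to a family of near-identical copies, so its reads may be split. Gstm1, a mu class transferase, had 48.7, 82.9 and 25.9 FPKM against 13.4, 39.7 and 105, with replicate 35 highest, and its small difference (0.29 ± 0.91) changed sign under 7 of the alternatives tried. The ferritin chains that store iron were the most abundant members and overlapped between doses: Fth1 had 511.1, 359 and 279 FPKM against 220, 196 and 702, and Ftl1 had 177, 217 and 139 against 60.7, 153 and 240.

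**Figure D4:**
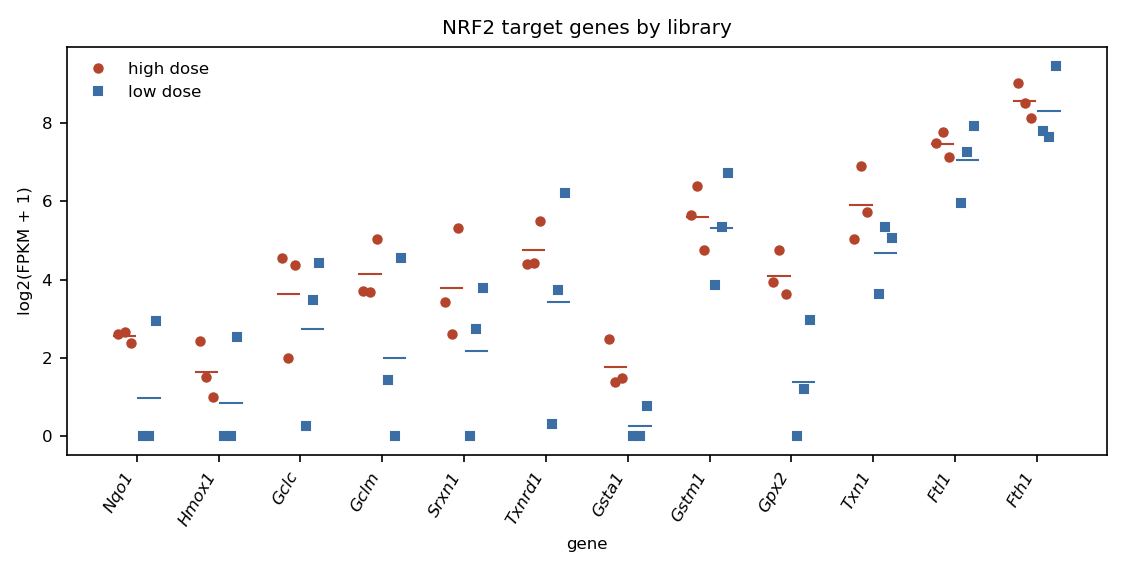
Level per library on the log2(FPKM + 1) scale (vertical axis) of 12 NRF2 targets from the wider table, with high dose libraries as red circles, low dose libraries as blue squares and group means as lines. One low dose library, replicate 35, sits at or above the high dose libraries for Nqo1, Hmox1, Txnrd1, Gstm1, Ftl1 and Fth1, while replicate 33 is lowest or tied lowest for most genes.

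Other xenobiotic sensors gave no call. Of the list of 7 genes for the aryl hydrocarbon receptor (AHR), 1 was tested in the wider table, the receptor gene Ahr. Its difference was -0.92 (limma adjusted p = 0.792). Cyp1a1, the classic target, was below the FPKM limit, with 0, 1.22 and 0.107 FPKM at the high dose and 0 in each low dose library. Of 10 targets of the receptors PXR and CAR, 6 were tested, all 6 above 0 (78.6% of all genes were), with a median of 0.63. Without replicates 33 and 34 the median was -0.88 and 0 of the 6 were above 0. Replicate 35 lay above all 3 high dose libraries for 5 of the 6, against 22.7% of all genes. Cyp2c55, a colonic cytochrome P450, had 367, 136 and 232 FPKM against 71.5, 165 and 433, and Abcb1a, the P-glycoprotein efflux pump, had 50.9, 44.3 and 62.1 against 2.54, 99.2 and 62.7. Doses overlapped in both genes.

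Protein stress lists held no called gene. ER chaperones and genes of the unfolded protein response had a median of 0.94 over 18 tested of 18 (17 above 0), with 3 whose groups did not overlap (9.82% of all genes), Sdf2l1, Pdia6 and Calr, and a median of 0.13 without replicates 33 and 34. Calr, the calcium-binding chaperone calreticulin, had 38.8, 74.4 and 102 FPKM against 31.8, 23.2 and 38.0, and Hspa5, the chaperone BiP, had 11.2, 36.6 and 64.6 against 12.0, 50.5 and 21.2. Calr was above in all 3 high dose libraries by a narrow margin and Hspa5 overlapped. Of 9 tested ATF4 targets of the amino acid response none stood apart, and the median was 0.65. Atf4 itself had 11.6, 11.4 and 21.4 FPKM against 14.2, 13.5 and 44.3. Heat shock proteins (12 tested, median 0.70) held 1 member with the low dose above (0.999% of all genes), Hsph1, at 2.84, 4.80 and 3.98 FPKM against 21.3, 4.88 and 9.57. The nearest libraries for Hsph1 were apart only by 4.80 against 4.88 FPKM.

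Targets of p53 (8 tested, median 0.92) held 2 members with groups that did not overlap, against 9.82% of all genes. Bbc3, which encodes the proapoptotic protein PUMA, had 5.18, 5.54 and 20.1 FPKM against 0, 0 and 1.71 (unadjusted p = 0.0104, limma adjusted p = 0.597). Zmat3 had 1.23, 5.61 and 4.14 FPKM against 0.597, 0.961 and 0.955. Cdkn1a, the cell cycle inhibitor p21, had 49.6, 51.2 and 40.5 FPKM against 41.2, 22.0 and 39.8, and overlapped. Without replicates 33 and 34 the list's median was 0.67, which is 0.69 above the median of all genes, against 0.25 above it with all 6 libraries. That distance was -0.22 when genes were required to have a mean FPKM of at least 5.

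The lists of housekeeping complexes had medians from 0.81 to 1.51 with all 6 libraries, against 0.67 for all genes. Without the shallow libraries their medians were near 0, as was that of all genes (-0.02). Of 42 tested nuclear genes of oxidative phosphorylation, 40 were above 0, 9 had an unadjusted p under 0.05 with the high dose above (6.57% of all genes did), 7 did not overlap (9.82% of all genes), and the median was 0.81 (-0.13 without replicates 33 and 34). Atp5b, the catalytic beta subunit of ATP synthase, had 600, 594 and 624 FPKM against 15.6, 206 and 463, and 12.7, 67.0 and 243 in the controls. Its high dose libraries lay close together and above the other 6, with a difference from the low dose of 2.38 ± 0.88 (limma adjusted p = 0.597). Cyc1, cytochrome c1, had 48.8, 56.7 and 60.1 FPKM against 18.5, 24.4 and 37.7. Uqcrq, a subunit of complex III, had 105, 128 and 117 FPKM against 0, 18 and 126, so replicate 35 was in the high dose range.

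Cytosolic ribosomal proteins (42 tested, 39 above 0, 7 without overlap) had a median of 1.29, and 0.08 without replicates 33 and 34. Of all genes, 78.6% were above 0 and 9.82% without overlap with the high dose above. Rps9 of the small subunit had 121, 178 and 144 FPKM against 5.06, 47.9 and 113, and Rplp1 of the stalk had 93.9, 280 and 173 against 48.9, 112 and 149. Only the first of these was without overlap. Ribosomal protein genes have many pseudogene copies that can share their reads. Proteasome subunits (28 tested, 26 above 0, 4 without overlap against the same 9.82% of all genes) had a median of 1.51, and -0.01 without the shallow libraries. Psmb4 had 20.4, 14.7 and 23.7 FPKM against 0, 0 and 13.5, whereas Psma7 had 34.4, 14.3 and 7.58 against 35.4, 19.6 and 22.0. Of 22 tested mitochondrial ribosomal proteins, with a median of 0.87, 9 were listed at 0 in both replicates 33 and 34.

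Lipid lists also gave no call. Genes of cholesterol synthesis and uptake had a median of 0.77 over 16 tested members, and those of fatty acid synthesis 0.72 over 12. Hmgcs1, which makes the HMG-CoA of the sterol pathway, had 11.6, 30.5 and 39.6 FPKM against 0.606, 17.6 and 22.1, and Fasn, fatty acid synthase, had 53.1, 51.1 and 25.1 against 19.1, 34.2 and 32.3. Fatty acid oxidation and ketogenesis had a median of 0.99 over 17, and -0.27 without replicates 33 and 34, with 3 members above 0. Hmgcs1 and Fasn overlapped between doses.

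The circadian clock list had the lowest median of the pathway lists with at least 5 tested members. Of 15 tested genes, 8 were above 0 and the median was 0.12, which is -0.55 relative to the median of all genes. Over the alternatives that distance ran from -1.61, with a mean FPKM of at least 5 required, to -0.25 without a filter on low values. It was -1.14 without low dose replicate 33, and -0.47 without both shallow libraries. Nr1d1, the repressor REV-ERB alpha, had 0.934, 2.32 and 3.21 FPKM at the high dose and 8.69, 18.9 and 4.08 at the low dose. Tef, a PAR bZIP output factor of the clock, had 3.86, 4.78 and 3.42 FPKM against 21.6, 9.07 and 15.5. Cry1, a core repressor, had 2.91, 7.30 and 4.16 FPKM against 0, 0 and 0.702. The groups of these 3 did not overlap, with the low dose above for Nr1d1 and Tef and the high dose above for Cry1, and none passed the test (limma adjusted p = 0.745 for Nr1d1 and Tef and 0.604 for Cry1). Of all genes in the wider table, 0.999% were without overlap with the low dose above and 9.82% with the high dose above. For Tef and Nr1d1 the shallow libraries, too, lay above the high dose libraries. The part of depth in these values was not tested. The clock hour of tissue collection is not given in the labels.

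**Figure D5:**
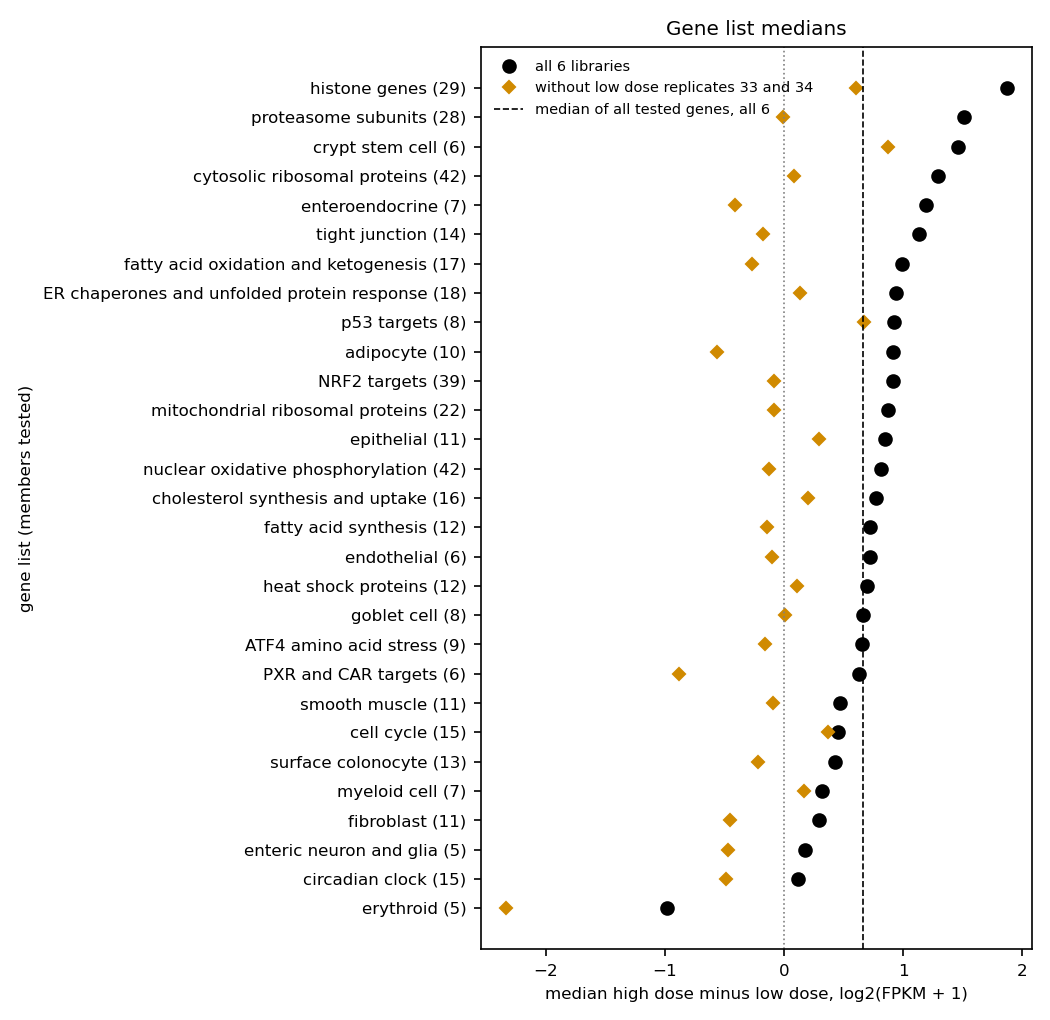
Median high dose minus low dose difference on the log2(FPKM + 1) scale (horizontal axis) of each gene list with at least 5 members tested in the wider table (vertical axis, number tested in brackets), with all 6 libraries as black circles and without low dose replicates 33 and 34 as orange diamonds. The dashed line is the median of all 8910 genes, 0.67, and most diamonds lie near or below 0.

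Epithelial markers, which define the labelled tissue's lining, were above 0 in each of the 6 cymopol libraries. In bulk tissue, fewer cells of a type and less RNA per cell cannot be told apart. All 11 epithelial markers were tested and all 11 were above 0, with a median of 0.85 and 0.29 without replicates 33 and 34. Their summed level was 1230, 1580 and 1600 FPKM at the high dose and 313, 1360 and 1320 at the low dose, so replicate 33 alone was low. Krt8, a keratin of simple epithelia, had 305, 383 and 289 FPKM against 17.5, 255 and 203, without overlap (1.71 ± 0.86, adjusted p = 0.722). Lgals4, a galectin of the gut epithelium, had 203, 297 and 248 FPKM against 61.4, 277 and 201, with overlap.

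Goblet cell markers (8 tested of 11, median 0.66) summed to 1060, 1550 and 636 FPKM at the high dose and 595, 2720 and 1950 at the low dose. Muc2 made up most of that in each low dose library, but not in high dose replicate 12. The other abundant members did not follow it: Fcgbp had 70.3, 262 and 94.6 FPKM against 21.8, 182 and 69.2, and Clca1 had 60.5, 272 and 48.0 against 18.1, 183 and 65.9. Tff3, the trefoil peptide secreted with mucin, had 72.3, 139 and 103 FPKM against 40.3, 133 and 96.1. High dose replicate 12 was highest for Fcgbp, Clca1 and Tff3, and replicate 34 was the highest low dose library for each. Surface colonocyte markers (13 tested, median 0.43) included Car1, a carbonic anhydrase, at 1006, 313 and 826 FPKM against 212, 269 and 1474, and Alpi, an alkaline phosphatase, at 7.57, 4.65 and 53 against 0, 0 and 3.45. Alpi did not overlap (limma adjusted p = 0.594).

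Crypt stem cell markers (6 tested of 10, all 6 above 0) had a median of 1.46, and 0.87 without replicates 33 and 34. They summed to 50.5, 60.4 and 32.1 FPKM at the high dose and 7.98, 15.9 and 18.3 at the low dose, without overlap. The controls had sums of 5.66, 287 and 23.4 FPKM. Myc, a growth-promoting transcription factor, had 2.27, 5.16 and 1.08 FPKM against 0 in each low dose library, and Axin2, a Wnt pathway target, had 2.37, 16.4 and 17.5 against 2.06, 2.22 and 4.43. Myc was the member without overlap (adjusted p = 0.594), against 9.82% of all genes with the high dose above. Enteroendocrine markers (7 tested, median 1.19) had a median of -0.41 without the shallow libraries. Pyy, the peptide YY hormone, had 30.2, 55.0 and 22.5 FPKM against 0, 0 and 25.8, so replicate 35 again lay in the high dose range.

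Markers of other cell types overlapped between the doses in their summed levels. Fibroblast markers summed to 207, 438 and 172 FPKM against 254, 194 and 256, smooth muscle markers to 835, 1370 and 648 against 641, 835 and 1120, and myeloid markers to 31.0, 75.1 and 10.5 against 48.2, 27.0 and 50.5. Markers of B and plasma cells summed to 2.53, 29.8 and 13.1 FPKM against 25.6, 14.9 and 8.41, and no member of that list or of the T and NK cell list was tested. Cd68, a macrophage lysosomal protein, had 0.611, 0.812 and 0 FPKM against 7.33, 11.6 and 5.56, without overlap (unadjusted p = 0.0121, limma adjusted p = 0.597, and called by voom), while Csf1r, the macrophage growth factor receptor, had 2.33, 4.20 and 2.33 against 1.04, 0.322 and 2.13. These 2 macrophage genes therefore lay in opposite directions. Adipocyte markers, from fat that can adhere to dissected bowel, summed to 424, 369 and 193 FPKM against 130, 124 and 524. Erythroid markers, from blood, summed to 33.1, 188 and 6.41 FPKM against 26.5, 226 and 207, and 1 of 5 was above 0. Their part in other results was not tested.

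Histone genes were grouped after their values had been seen, because 2 were among the 10 genes with the smallest p. Of 67 genes of the replication-dependent clusters, 18 were among the 1012 genes, 17 of these were above 0, 8 had an unadjusted p under 0.05 and 7 did not overlap, all with the high dose above. Of all 1012 genes these shares were 7.31% and 10.6%, and since the grouping followed from the p of 2 members, nothing is read from the counts. Their median was 2.24, and 0.63 without replicates 33 and 34. Hist1h2ac had 3.75, 13.2 and 13 FPKM against 0 in each low dose library, and Hist1h1a, a linker histone, had 8.19, 16.0 and 8.18 against 0, 0 and 2.28. Hist1h4k had 29.8, 49.8 and 34.9 FPKM against 0, 0 and 26.7, whereas Hist1h3c had 10.2, 21.4 and 5.13 against 39.3, 33.5 and 6.42. Replicates 33 and 34 were both listed at 0 for 10 of the 18. Copies of these genes are near identical, so reads can be split among them. The cell cycle list, whose genes are active with histone synthesis, had 15 tested members with a median of 0.45. Mcm2, a subunit of the replicative helicase, had 1.64, 1.70 and 2.39 FPKM against 0, 0 and 0.172, without overlap, and Top2a, a topoisomerase of dividing cells, had 1.60, 3.32 and 2.05 against 32.0, 6.41 and 2.59, with overlap.

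The dose difference of cymopol was set against that of the algal extract, which has no sample in common with it. The doses differ in kind (mmol/kg of a compound, g/kg of an extract), so the comparison tests whether high against low differed between the agents. Among 621 genes tested in all 12 libraries none was called (0.0% called, limma), with 9 genes higher for cymopol and 7 lower at an unadjusted p under 0.05. Of 8868 genes in the wider table, 1 was called (0.0113%), mt-Nd6, with 51 genes higher for cymopol and 137 lower at an unadjusted p under 0.05. The median of the difference between agents was -0.38 there, and 0.17 without extract replicate 26, with 180 genes higher and 68 lower. The median difference was 0.67 for cymopol and 1.03 for the extract over those 8868 genes. The low dose libraries of the extract were also the shallower ones, at 34301, 120896 and 82464 estimated fragments against 191502, 594286 and 300935 at its high dose. For the 39 NRF2 targets the median was 0.91 for cymopol and 1.59 for the extract, with no member at an unadjusted p under 0.05 for the difference. Circadian clock genes had medians of 0.12 and 0.78, and proteasome subunits 1.51 and 1.34. Ran had dose differences of 4.69 for cymopol and 2.08 for the extract (limma adjusted p of the difference = 0.998 among the 621 genes).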

How the data were processed

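Ribosomal RNA was removed from 90 ng of total RNA and low-input libraries were sequenced, per the labels' protocols. STAR 2.4.0j and the build GRCm38.p4 are named in the submitters' processing notes. The authors deposited FPKM with an interval for each of 15 libraries. Per the file headers these are Cufflinks-style gene tables. How the quantifier was set, and with which annotation, is not given in the sources used here. Of 38189 Ensembl identifiers, 37764 are in GENCODE M21.

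Here, log2(FPKM + 1) was compared between the doses with limma 3.58.1 in R 4.3.3 (trend fit over 6 libraries, two-sided, Benjamini-Hochberg over all genes tested, threshold 0.05). The second contrast used 12 libraries. Fragments were estimated as the square of 2 FPKM over the interval's upper half-width. For the wider table, a locus was given to a gene without a row when each was the other's best match and their overlap divided by their union was 0.5 or more (bedtools 2.31.1). The fit was also run on simulated normal values with known differences. These held no listed zeros and no depth difference between libraries, so nothing is read from them about the dose comparison. Library measures were compared by exact permutation (scipy 1.17.1). Alternatives were other pseudocounts, filters, scalings, sets of libraries and voom. Unmatched loci were not used.

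The members and gene lists were chosen with earlier results of these data known. Genes named are 10 fixed ones (8 NRF2 targets tested, Slc7a11 and Cyp1a1), the 10 protein-coding genes of smallest p in each direction, since fewer than 3 were called, and up to 4 members of each list by mean level. Others, including list members whose groups did not overlap, were named after their values were seen.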

Additional observations from a re-analysis of the deposited data

Results flagged for a closer look

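One gene differed between agents in its dose difference by a test of that difference. For mt-Nd6, a mitochondrially encoded subunit of complex I, the cymopol dose difference minus the extract dose difference was 7.99 on the log2(FPKM + 1) scale in the wider table (limma interaction contrast, adjusted p = 0.0365). No gene was called for this difference, mt-Nd6 included, with a pseudocount of 0.1 (smallest adjusted p = 0.348), median-of-ratios scaling (0.994) or quantile normalization (0.26), or in 8 of the 12 fits that left out 1 library (0.0542 to 0.849). With cymopol it had 45.1, 79.7 and 40.9 FPKM at the high dose and 0, 0 and 4.73 at the low dose. With the extract it was listed at 0 in all 3 high dose libraries and had 0, 57.4 and 9.34 FPKM at the low dose. The controls had 40.9, 29.8 and 0 FPKM. Since the mitochondrial genes mt-Co1, mt-Co2 and mt-Cytb were listed at 0 in all 6 cymopol libraries, a listed 0 for mt-Nd6 can be a failed estimate. The gene lies on the strand opposite to mt-Nd5, next to it, and the counting is not stated to use strand. Its cymopol dose difference alone did not pass (adjusted p = 0.104).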

How the results depend on the processing

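No paired analysis was possible because the 2 dose groups share no replicate number. For the dose comparison, 0 genes were called under every alternative except the fit with all 15 libraries, voom (2 lower) and the wider table (1 higher). The fit with all 15 libraries called 3 higher and 2 lower, each at a limma adjusted p of 0.049, among the 587 genes it tested. The alternative filters also changed the set, to 5166 genes without a filter, 337 at a mean FPKM of at least 5 and 274 above 0 in all 6. The remaining alternatives outside the wider table tested the 1012 genes. The median of all 1012 genes was 1.43 with a pseudocount of 0.1 and -0.18 without low dose replicates 33 and 34. In the wider table the genes called higher were 0 with a pseudocount of 0.1, without a filter, above 0 in all 6, with median-of-ratios scaling, with quantile normalization and with voom, 4 with array weights, and 2 without replicates 33 and 34. Genes called lower there were 1 with all 15 libraries and 8 with voom. Leaving out 1 library in turn gave 0 to 2 called higher (0 without high dose replicate 12 or low dose replicate 35) and 0 to 1 called lower. The difference between agents gave 0 calls under each alternative outside the wider table, among 621 genes, or 211 with a mean FPKM of at least 5. In the wider table, 0 were called for it with a pseudocount of 0.1, median-of-ratios scaling or quantile normalization, and 0 to 2 on leaving out 1 of 12 libraries. It was 0 without cymopol replicate 12, 33 or 34 or extract replicate 21, 23, 25, 27 or 29, and 2 without cymopol replicate 14.

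Signs reversed as follows. Without replicates 33 and 34: Cdr1 0.00, Nqo1 -0.38, Gclc -0.78, Gclm -0.39, Hmox1 -0.88, Txnrd1 -1.44 and Gstm1 -1.13. With voom: Gclc -0.03, Hmox1 -0.09, Txnrd1 -2.24, Gstm1 -0.53, Gpx2 -2.24 and Krt8 -0.02. These voom values rest on estimated fragments, with the limit given above. Gstm1 was -0.25 with median-of-ratios scaling, -0.05 with quantile normalization and -0.06 with array weights. Leaving out 1 library gave -0.32 to 1.76 for Gclc, -0.21 to 2.74 for Txnrd1 and -0.44 to 0.99 for Gstm1. The cause was not tested. Of the gene lists' medians relative to all genes, 449 values moved by less than the spread between libraries and 66 by more, 12 of these for the circadian clock. For single genes, 522 other values kept direction and side of the threshold, and mt-Nd6 passed with array weights. Replicates 33 and 34 hold the fewest estimated fragments of the 6 libraries, so low values are least precise there. The added alternatives (the wider table, and leaving out replicates 33 and 34) were chosen after seeing the data.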
